A study of Mus musculus with 27 samples.

Results

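The interferon-inducible GTPases are a group of genes that interferon-gamma switches on strongly in most mouse cells. The 10 described here were Gbp2, Gbp3, Gbp4, Gbp7 and Gbp9, which encode guanylate-binding proteins, and Irgm1, Irgm2, Igtp, Iigp1 and Ifi47, which encode immunity-related GTPases. They were chosen by symbol from the 47729 genes of the count table, with earlier results of these data known. Each symbol matched 1 Ensembl gene ID, and all 10 passed the filter on low counts, which kept 14059 genes. Guanylate-binding proteins and immunity-related GTPases gather on the membranes of vacuoles that hold parasites or bacteria and help to break them open. Interferon-gamma reaches these genes through its receptor and the kinases Jak1 and Jak2, by way of gamma-activated sequences (GAS) in the DNA, and through Irf1, which binds interferon-stimulated response elements (ISRE). Type I interferon also acts on ISREs, with Stat2 and Irf9 among its factors. T cells both secrete interferon-gamma and respond to it.

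The libraries were bulk RNA-seq of CD8+ T cells from MC38 tumours, a mouse colon adenocarcinoma model. Live CD45+CD3+CD8+ cells of dissociated tumours were sorted on PD-1, an inhibitory receptor that activated T cells carry, and on KLRG1, found on late effector T cells. Mice received Tri, the combined immunotherapy that the series text calls TCT and whose components the labels do not give, or Iso, an isotype control. Of the 27 libraries, Tri PD1+KLRG1+, Tri PD1+KLRG1- and Tri PD1-KLRG1- had 5 each, while Tri PD1-KLRG1+, Iso PD1-KLRG1+ and Iso PD1-KLRG1- had 4 each. Mouse strain, age and time of sampling were not given in the labels, PD1+ cells were sequenced under Tri alone, and the stated aim was a profile of the CD8+ populations that the treatment induces. The labels do not say that each library came from a separate mouse, so the p-values below measure the spread between these libraries.

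Iso PD1-KLRG1+ replicate 3 held 93198 counts in total, and the other 26 libraries held 6991521 to 26284630. In that library single members rest on few counts, for example 0 for Gbp3, 1 each for Gbp9 and Iigp1 and 73 for Gbp7. Iso PD1-KLRG1+ libraries also held 5755 to 8621 of the 14059 genes, against 9836 to 13315 in the other groups. Summed CD8 T cell markers lay between 5051 and 10200 CPM (a gene's share of the library's counts, scaled to a common total) with no marker at 0 in any library, and Pdcd1 and Klrg1 medians followed the gates. Myeloid marker sums ranged over 233.4 to 748.1 CPM in Tri PD1+KLRG1+, 260.6 to 741.1 in Tri PD1+KLRG1-, 210.1 to 264.5 in Tri PD1-KLRG1+, 188.9 to 590.2 in Tri PD1-KLRG1-, 246.8 to 10150 in Iso PD1-KLRG1+ and 915.1 to 4132 in Iso PD1-KLRG1- libraries. Iso PD1-KLRG1+ replicate 4 held the highest sums of myeloid markers and of 10 tumour and stromal markers (3384 CPM) and the lowest CD8 sum, while tumour and stromal markers summed to 42.9 to 527.8 CPM in the other libraries of its group and at most 113 CPM elsewhere. In bulk RNA, fewer cells that express a gene and less of its RNA per cell cannot be told apart.

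The members lie in clusters in which family members neighbour each other. Gbp7, Gbp3 and Gbp2 are on chromosome 3 in a row with Gbp5 and Gbp2b, and Gbp9 and Gbp4 on chromosome 5 between Gbp8 and Gbp10. Igtp and Irgm2 are adjacent on chromosome 11, which also carries Irgm1 and Ifi47, the last beside Tgtp1 and Tgtp2. Related genes share sequence that counting could split. Stretches of 50 bases were taken from the longest protein-coding GENCODE M21 transcript of each member, so exons outside it are left out. Of these stretches, 12.3% in Igtp, 7.30% in Irgm2, 12.8% in Gbp4, 12.8% in Gbp7, 9.56% in Gbp9 and at most 4.79% in the other members also occur in another gene.

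Promoter sequences of RefSeq (build GRCm38.p6), running from 250 bases before to 50 bases after the annotated start, were at hand for 7 of the 10 members. The 5 shown belong to genes that were lower in PD1+ cells in the test described below. They are written 5′ to 3′ on the gene's own strand, all on the + strand, and capitals mark matches to the GAS letters TTCNNNGAA or the ISRE core, GAAA followed by any 2 bases and GAAA (TTTC, 2 bases and TTTC where the match is on the other strand).
Igtp, chr11:58199306-58199605: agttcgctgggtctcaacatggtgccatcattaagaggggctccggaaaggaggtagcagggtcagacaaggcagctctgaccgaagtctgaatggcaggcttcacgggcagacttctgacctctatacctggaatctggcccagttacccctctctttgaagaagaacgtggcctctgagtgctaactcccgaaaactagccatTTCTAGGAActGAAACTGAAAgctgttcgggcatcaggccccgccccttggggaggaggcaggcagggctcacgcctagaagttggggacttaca
Irgm2, chr11:58214727-58215026: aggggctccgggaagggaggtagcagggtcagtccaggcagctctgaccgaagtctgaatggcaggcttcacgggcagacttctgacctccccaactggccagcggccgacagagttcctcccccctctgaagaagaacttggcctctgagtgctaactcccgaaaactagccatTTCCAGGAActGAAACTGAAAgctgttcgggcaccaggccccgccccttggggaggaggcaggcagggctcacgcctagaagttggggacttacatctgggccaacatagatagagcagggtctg
Gbp7, chr3:142530086-142530385: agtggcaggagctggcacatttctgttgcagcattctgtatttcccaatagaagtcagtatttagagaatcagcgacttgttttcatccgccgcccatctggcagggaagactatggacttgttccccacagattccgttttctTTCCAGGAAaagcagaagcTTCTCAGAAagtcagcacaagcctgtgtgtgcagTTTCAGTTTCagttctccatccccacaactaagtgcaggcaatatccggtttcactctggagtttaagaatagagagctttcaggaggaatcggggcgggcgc
Gbp2, chr3:142620413-142620712: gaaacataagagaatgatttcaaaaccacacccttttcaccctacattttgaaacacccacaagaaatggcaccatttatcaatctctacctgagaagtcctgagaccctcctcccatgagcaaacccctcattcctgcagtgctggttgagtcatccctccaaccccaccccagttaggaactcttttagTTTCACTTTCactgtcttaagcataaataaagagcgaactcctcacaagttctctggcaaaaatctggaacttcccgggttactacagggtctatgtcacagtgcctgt
Ifi47, chr11:49076337-49076636: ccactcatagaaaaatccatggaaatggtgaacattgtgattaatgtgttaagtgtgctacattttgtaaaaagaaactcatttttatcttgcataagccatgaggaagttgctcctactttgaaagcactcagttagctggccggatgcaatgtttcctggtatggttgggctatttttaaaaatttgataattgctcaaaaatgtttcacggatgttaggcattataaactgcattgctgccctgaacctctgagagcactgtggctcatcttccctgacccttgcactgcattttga

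Searched on both strands, the ISRE core was present in 6 of these 7 members and in 3.44% of all 32851 promoters in the table. The GAS letters were present in Gbp7 (2 matches), Irgm2 and Igtp and in 8.30% of all promoters, and both motifs together in the same 3 members and in 0.454% of all promoters. In Igtp the GAS match spans bases -45 to -37 and the ISRE core -34 to -25, 2 bases apart, and Irgm2 has the same arrangement at -75 to -67 and -64 to -55. Aligned without gaps at a shift of 30 bases, the promoters of these adjacent genes were identical at 184 of 270 positions (68.1%). Irgm1 and the first start of Gbp3 each held 2 overlapping ISRE cores, and Ifi47 held neither motif in this window.

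**Figure D1:**
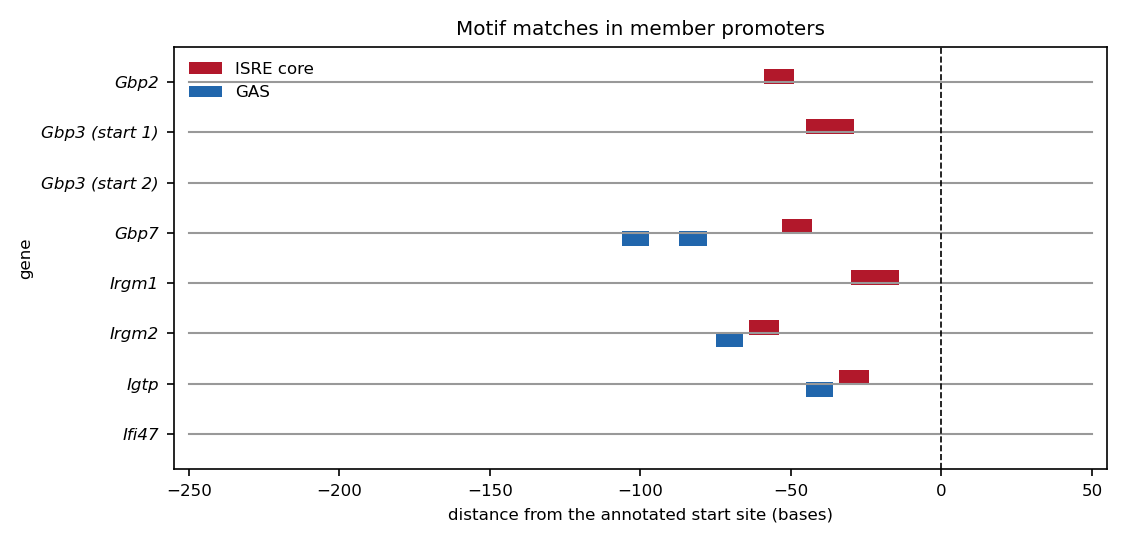
Positions of ISRE core and GAS matches in the 8 promoter entries of 7 members; the horizontal axis is the distance from the annotated start in bases, and the dashed line marks the start. In Igtp and Irgm2 the 2 motifs lie side by side, while Ifi47 and the second start of Gbp3 hold no match.

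Within Tri, PD1+ cells held fewer transcripts of these genes in sum than PD1- cells in both KLRG1 gates. Summed over the 10 members, Tri PD1+KLRG1- libraries held 1709 ± 335 CPM (SD, n = 5) and Tri PD1-KLRG1- libraries 4026 ± 823.9 (n = 5). The KLRG1+ gate gave 1811 ± 318.7 CPM in Tri PD1+ (n = 5) and 3344 ± 682.1 in Tri PD1- libraries (n = 4). In KLRG1- cells 6 of the 10 fell by edgeR's quasi-likelihood test, with Benjamini-Hochberg adjustment over all 14059 genes and a threshold of 0.05, where 0.939% of all genes fell. No fit that left out 1 library kept all 6: these fits called 3 to 5, with 3 when either Tri PD1-KLRG1- replicate 2 or Tri PD1+KLRG1- replicate 3 was left out. In KLRG1+ cells 2 of the 10 fell, against 0.711% of all genes, and 1 to 2 with 1 library left out. All 10 fitted log2 fold changes were negative in both gates, as against 53.5% of all genes above 0 in the KLRG1- and 49.4% in the KLRG1+ gate. The members were chosen with earlier results of these data known, so the shares of all genes are set beside them as description only. The 2 PD1 comparisons share no library, but they come from the same fit with a shared estimate of spread. The labels do not say whether the 2 gates came from separate mice.

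**Figure D2:**
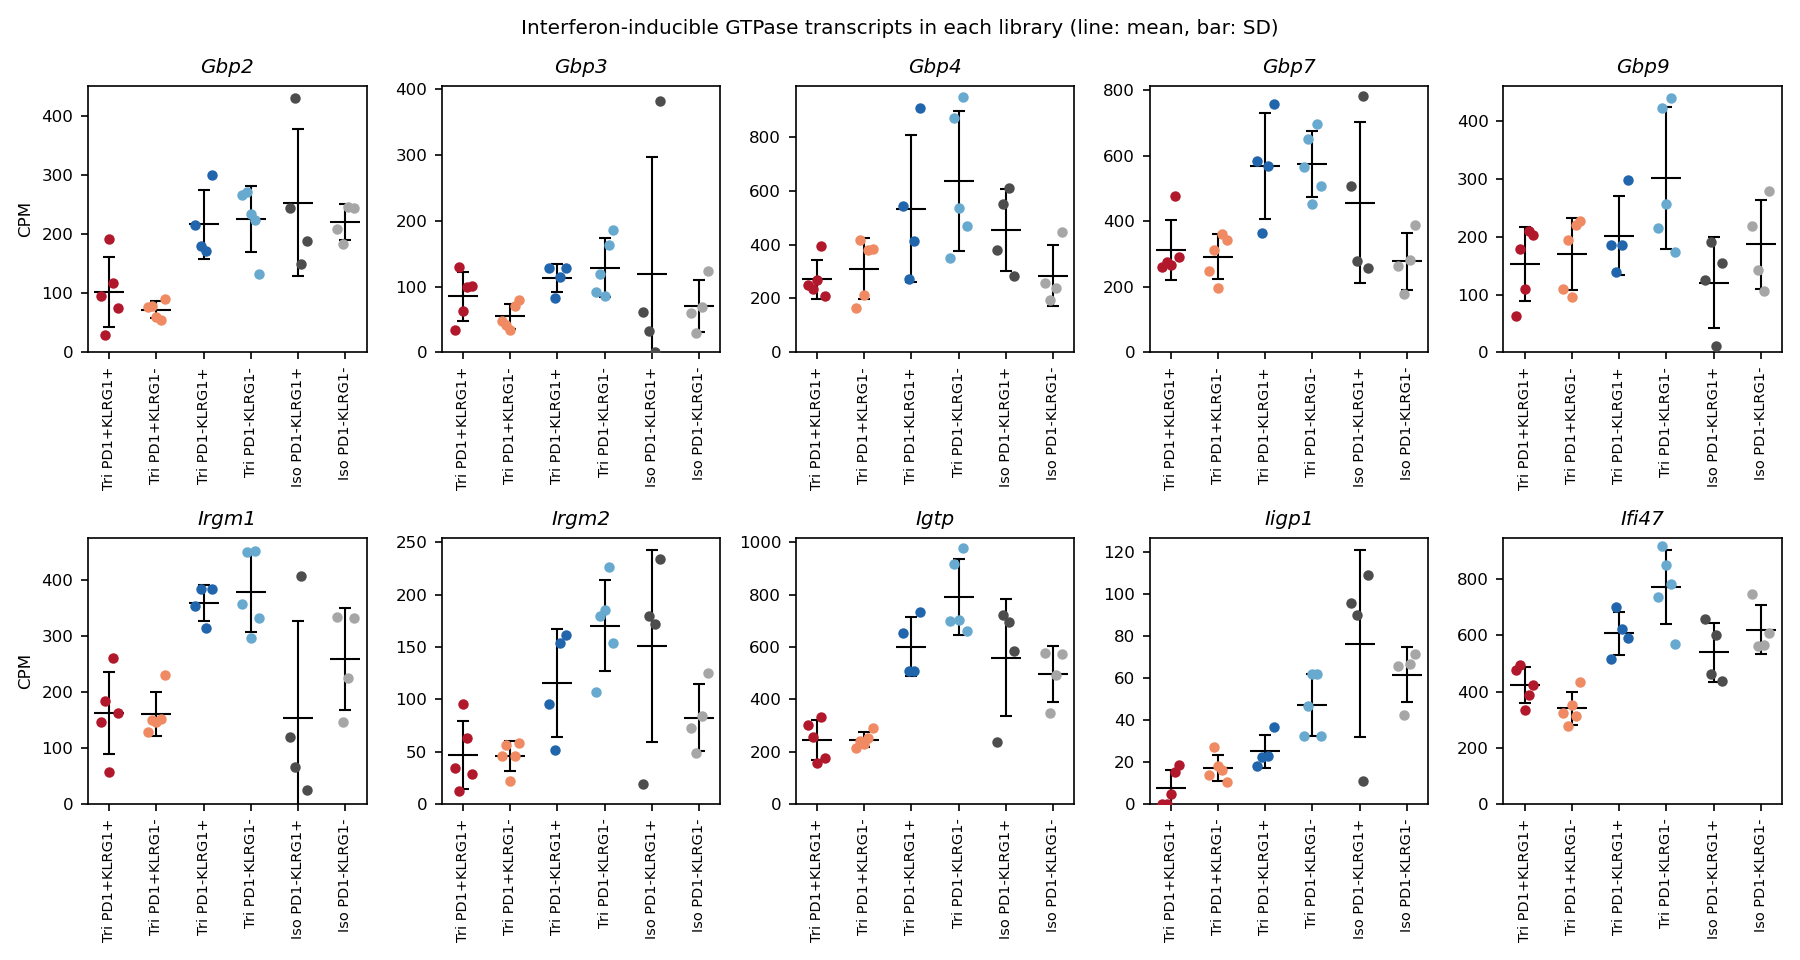
CPM of each member in every library (points) with the group mean (bar), in the 6 groups of sorted CD8+ T cells; each panel has its own vertical axis from 0. In Igtp, Irgm1 and Ifi47 the Tri PD1+ libraries lie below the Tri PD1- libraries of the same KLRG1 gate without overlap, and the Iso PD1-KLRG1+ group has the widest spread in Gbp3 and Irgm1.

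Among the guanylate-binding protein genes, Gbp2 (ENSMUSG00000028270), whose product is recruited to the Toxoplasma vacuole, had the lowest adjusted p in KLRG1- cells. In the KLRG1- gate it was at 77.5, 78.1, 60.1, 54.6 and 89.6 CPM in Tri PD1+, against 267, 272, 235, 224 and 133 CPM in Tri PD1- libraries. Every PD1+ library lay below every PD1- library, and the fitted log2 fold change was -1.70 ± 0.35 (SE, edgeR adjusted p = 0.00593). In the KLRG1+ gate it was at 94.7, 30.1, 192, 118 and 75.7 CPM in Tri PD1+, against 215, 181, 172 and 300.1 in Tri PD1- libraries. Tri PD1+KLRG1+ replicate 3 was the one that reached into the PD1- range, and the log2 fold change of -1.16 ± 0.36 was not called (edgeR adjusted p = 0.131, but 0.0439 without that library).

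Gbp7 (ENSMUSG00000040253), which in mouse macrophages helps to assemble the phagocyte oxidase, was called in both gates. It was at 248, 313, 197, 361 and 344 CPM in Tri PD1+KLRG1-, against 567, 651, 452, 696 and 509 CPM in Tri PD1-KLRG1- libraries. The groups did not overlap and the log2 fold change was -1.05 ± 0.23 (edgeR adjusted p = 0.0143). It was at 259.5, 274.5, 267, 476 and 293 CPM in Tri PD1+KLRG1+, against 584.5, 365, 569.8 and 759 CPM in Tri PD1-KLRG1+ libraries. Here Tri PD1+KLRG1+ replicate 4 lay above Tri PD1-KLRG1+ replicate 2, and the log2 fold change was -0.98 ± 0.25 (edgeR adjusted p = 0.0439). Leaving out 1 library ended the KLRG1- call without Tri PD1-KLRG1- replicate 2 or Tri PD1+KLRG1- replicate 3 (up to 0.0824). The KLRG1+ call held in 2 of 9 such fits, those without Tri PD1-KLRG1+ replicate 2 or Tri PD1+KLRG1+ replicate 4 (adjusted p up to 0.177 in the others).

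Gbp4 (ENSMUSG00000079363), a further guanylate-binding protein gene, fell in the KLRG1- gate with overlapping groups. It was at 166, 416, 211, 381 and 382 CPM in Tri PD1+KLRG1-, against 350.4, 869, 537, 949 and 469 CPM in Tri PD1-KLRG1- libraries, a log2 fold change of -1.11 ± 0.28 (edgeR adjusted p = 0.0435). The lowest PD1- library, replicate 1, lay below 3 of the 5 PD1+ libraries, and the call held in 3 of 10 fits that left out 1 library (adjusted p up to 0.178). In the KLRG1+ gate the log2 fold change was -1.05 ± 0.30 (edgeR adjusted p = 0.0837, but 0.0445 without the Iso PD1-KLRG1+ libraries). In the KLRG1- gate Gbp3 averaged 55.1 ± 19.0 CPM in Tri PD1+ against 129 ± 44.2 in Tri PD1- libraries (SD, n = 5 each), and Gbp9 averaged 169.6 ± 62.4 CPM in Tri PD1+ against 301.4 ± 122 in Tri PD1- libraries. Neither was called, with log2 fold changes of -1.29 ± 0.49 and -0.96 ± 0.37 (edgeR adjusted p = 0.276 and 0.28), nor in the KLRG1+ gate (-0.68 ± 0.51 and -0.58 ± 0.39). Without the Iso PD1-KLRG1+ libraries Gbp3 was called in the KLRG1- gate (-1.26, edgeR adjusted p = 0.00978).

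The regulatory immunity-related GTPases, encoded by Irgm1, Irgm2 and Igtp, keep the effector GTPases inactive on the cell's own membranes. Igtp (ENSMUSG00000078853, also called Irgm3) fell in both gates. It was at 213.5, 239, 229, 251 and 289.7 CPM in Tri PD1+KLRG1-, against 699, 916, 705, 978 and 660.3 CPM in Tri PD1-KLRG1- libraries. The highest PD1+ library thus lay well below the lowest PD1- library, at a log2 fold change of -1.75 ± 0.23 (edgeR adjusted p = 4.07e-05). In the KLRG1+ gate it was at 302, 258, 155.5, 331.5 and 174 CPM in Tri PD1+, against 652, 507, 508.5 and 735 CPM in Tri PD1- libraries. Again no libraries overlapped, and the log2 fold change was -1.40 ± 0.24 (edgeR adjusted p = 0.00172). Both calls held in every fit that left out 1 library, 10 of 10 and 9 of 9.

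Irgm2 (ENSMUSG00000069874), the neighbour of Igtp, was lower in each Tri PD1+KLRG1- library than in each Tri PD1-KLRG1- library. Its values were 45.3, 56.6, 22.3, 45.4 and 58.0 CPM in Tri PD1+KLRG1-, against 107, 179, 185, 226 and 154 CPM in Tri PD1-KLRG1- libraries. The log2 fold change of -1.96 ± 0.49 was the most negative of the members in this gate, but with any 1 of the 10 libraries left out the call (edgeR adjusted p = 0.0367) was lost (up to 0.128). In the KLRG1+ gate Irgm2 averaged 47.0 ± 32.5 CPM in Tri PD1+ and 115.6 ± 51.9 in Tri PD1- libraries, at -1.39 ± 0.50 (edgeR adjusted p = 0.221).

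Irgm1 (ENSMUSG00000046879), which in mice is also needed for the survival of CD4+ T cells exposed to interferon-gamma, separated the PD1 gates without overlap in both KLRG1 gates and was called in neither. It was at 129, 149.9, 147, 151 and 230 CPM in Tri PD1+KLRG1-, against 358, 451, 298, 453 and 333.5 CPM in Tri PD1-KLRG1- libraries. It was at 146, 185, 56.7, 261 and 163 CPM in Tri PD1+KLRG1+, against 353.5, 385, 316 and 385 CPM in Tri PD1-KLRG1+ libraries. The log2 fold changes were -1.29 ± 0.41 and -1.27 ± 0.43 (edgeR adjusted p = 0.136 and 0.192). Irgm1 varied widely among Iso PD1-KLRG1+ libraries (coefficient of variation 112%), which enter the shared estimate of spread. Without those 4 libraries both were called, at -1.27 (adjusted p = 0.00325) and -1.28 (0.00665).

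Among the effector immunity-related GTPase genes, Ifi47 (ENSMUSG00000078920, the GTPase Irgd) varied little within groups, with coefficients of variation of 12.6% to 19.5%. It was at 322.5, 278, 354, 314 and 434 CPM in Tri PD1+KLRG1-, against 736, 917, 850.3, 785 and 569 CPM in Tri PD1-KLRG1- libraries. The groups did not overlap, and the log2 fold change of -1.22 ± 0.16 was called (edgeR adjusted p = 4.09e-05) in 10 of 10 fits that left out 1 library. In the KLRG1+ gate it was at 477, 494, 336, 388 and 424 CPM in Tri PD1+, against 517, 702, 622 and 589.7 CPM in Tri PD1- libraries. Those groups were separate too, though closer, and the log2 fold change was -0.59 ± 0.17 (edgeR adjusted p = 0.0954). Iigp1 (ENSMUSG00000054072, on chromosome 18), the effector Irga6 that loads onto the Toxoplasma vacuole, had the lowest level per length of the 10 in every group. It was at 0, 0, 4.60, 15.2 and 18.3 CPM in Tri PD1+KLRG1+ and at 10.6 to 27.1 CPM in Tri PD1+KLRG1-, against 18.2 to 36.5 CPM in Tri PD1-KLRG1+ and 32.2 to 62.0 CPM in Tri PD1-KLRG1- libraries. The counts of 0 allow up to 0.159 and 0.175 CPM in those 2 libraries (3 counts of the total, counting error only). Iigp1 was called in neither gate, at -1.46 ± 0.93 in KLRG1- and -2.25 ± 1.05 in KLRG1+ cells (edgeR adjusted p = 0.837 and 0.408).

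**Figure D3:**
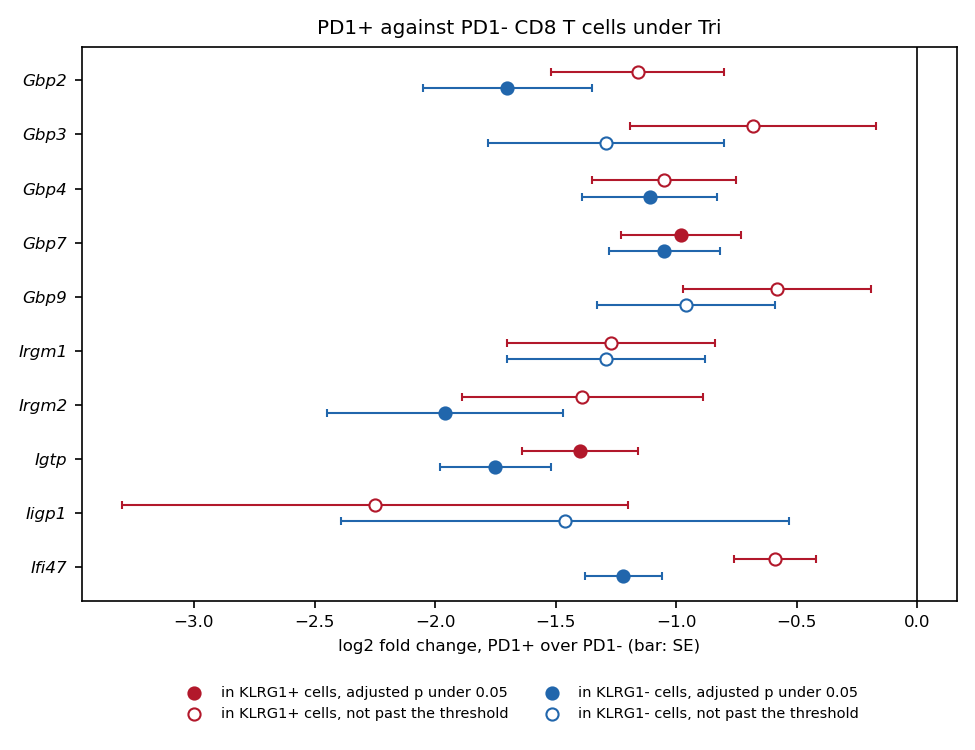
Fitted log2 fold change of PD1+ minus PD1- libraries for each member, in Tri KLRG1+ and Tri KLRG1- cells; points are edgeR estimates, bars their standard errors, and filled points passed an adjusted p of 0.05. All 20 estimates lie below 0, with Igtp and Gbp7 called in both gates.

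Groups that did not overlap gave a further count, for the same chosen list, that does not depend on the fit. In KLRG1- cells 8 of the 10 members, all but Gbp4 and Gbp9, had every PD1+ library below every PD1- library, as did 2.92% of all genes. In KLRG1+ cells these were Irgm1, Igtp and Ifi47, 3 of 10 against 2.25%. With an unadjusted p under 0.05 there were 9 of 10 in KLRG1- cells, against 9.52% of all genes, and 8 of 10 in KLRG1+ cells, against 11.2%. The median log2 fold change of the members was -1.29 in KLRG1- and -1.11 in KLRG1+ cells, beside 0.06 and -0.01 over all genes. The difference between the PD1 effects in the 2 KLRG1 gates, tested as an interaction, was called in 0 members and in 0% of all genes (DESeq2 also 0 members). The 1 member with an unadjusted p under 0.05 (4.54% of all genes), Ifi47, had a PD1 effect less negative by 0.63 ± 0.24 in KLRG1+ cells (edgeR adjusted p = 0.712). The library names form 2 series, with and without an RNA-number suffix. Within each of them all 10 members stayed negative in both gates, with medians between -1.38 and -0.95, and 2 members, Igtp and Ifi47, were called in KLRG1- libraries without the suffix. The share of all genes called in that fit is not given beside this count.

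Myeloid cells also express these GTPases, and edgeR called 0 of their 15 marker genes in either PD1 comparison, with 3 under an unadjusted p of 0.05 in KLRG1- and 2 in KLRG1+ cells. Of 12 myeloid markers with an adjusted p, DESeq2 called 1 higher in Tri PD1+KLRG1- and 3 higher in Tri PD1+KLRG1+ cells. Summed myeloid markers averaged 547 CPM in Tri PD1+KLRG1- and 329.7 CPM in Tri PD1-KLRG1- libraries, and 543 CPM in Tri PD1+KLRG1+ and 241 CPM in Tri PD1-KLRG1+ libraries. The sums of single libraries overlapped between PD1+ and PD1- groups in both KLRG1 gates. In KLRG1- cells 11 of 15 markers and in KLRG1+ cells 12 of 15 had positive log2 fold changes. Most markers were detected: the only one at 0 throughout Tri PD1+KLRG1+ and Tri PD1-KLRG1- libraries was Adgre1, with Cd14 also at 0 throughout Tri PD1-KLRG1+ libraries and no marker at 0 throughout Tri PD1+KLRG1- libraries. Of 7 tumour and stromal markers tested edgeR called 0 in either gate, with 2 in KLRG1- and 1 in KLRG1+ cells under an unadjusted p of 0.05, and DESeq2 called 0. The part of such cells in the result was not tested.

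Treatment could be compared in PD1- cells, and in the KLRG1- gate 8 of the 10 members had positive log2 fold changes without a call by edgeR. Gbp7 was at 567, 651, 452, 696 and 509 CPM in Tri PD1-KLRG1-, against 265, 177, 282 and 388 CPM in Iso PD1-KLRG1- libraries. No Iso library reached the lowest Tri library, at a log2 fold change of 0.98 ± 0.25 (edgeR adjusted p = 0.0619). Igtp, at 699, 916, 705, 978 and 660.3 CPM in Tri against 577.5, 348.5, 491.5 and 572 CPM in Iso libraries, was also without overlap, at 0.60 ± 0.24 (edgeR adjusted p = 0.426). Being higher without overlap applied to 2 of 10 members and to 2.61% of all genes. Gbp4 averaged 635 ± 261 CPM in Tri (n = 5) and 285 ± 112 in Iso libraries (SD, n = 4), a log2 fold change of 1.08 ± 0.30 (edgeR adjusted p = 0.104).

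The other values in this comparison were 0.97 ± 0.51 for Irgm2, 0.71 ± 0.52 for Gbp3, 0.63 ± 0.39 for Gbp9, 0.49 ± 0.43 for Irgm1 and 0.27 ± 0.17 for Ifi47. Gbp2 stood at -0.01 ± 0.36 and Iigp1 at -0.52 ± 0.96. EdgeR called 0 of 10 members where 0.804% of all genes were called, 3 had an unadjusted p under 0.05 (8% of all genes), and DESeq2 called Gbp7 alone (adjusted p = 0.0134). Without the Iso PD1-KLRG1+ libraries, which are in neither group but enter the fit, edgeR called Gbp7 (adjusted p = 0.0051) and Gbp4 (0.0496). The median was 0.61, beside -0.09 over all genes, of which 45.3% lay above 0. The Tri PD1-KLRG1- libraries are also the PD1- side of the KLRG1- comparison above. Of 15 myeloid markers 2 were called lower in Tri here and 14 had negative values, with sums of 188.9 to 590.2 CPM in Tri and 915.1 to 4132 CPM in Iso libraries. Of 7 tumour and stromal markers 1 was called lower and 6 had negative values, with sums of 33.8 to 87.45 CPM in Tri and 80.6 to 113 CPM in Iso libraries. The part of these markers in the values of the members was not tested.

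In PD1-KLRG1+ cells the treatment comparison gave 0 of 10 members called, against 6.08% of all genes, and 1 with an unadjusted p under 0.05, against 22.2% (edgeR; DESeq2 0 called). That member was Irgm1, at 353.5, 385, 316 and 385 CPM in Tri PD1-KLRG1+, against 119, 66.8, 408 and 24.7 CPM in Iso PD1-KLRG1+ libraries. The Iso library within the Tri range was replicate 3, with 38 counts of Irgm1 in all. The log2 fold change was 1.58 ± 0.49 (edgeR adjusted p = 0.0518), and without that library 2.39 (0.000782). Log2 fold changes of the other members ran from -1.63 ± 1.05 in Iigp1 to 0.63 ± 0.41 in Gbp9, with Ifi47 at 0.25 ± 0.18 and Igtp at 0.19 ± 0.26. The median over members was 0.24 and over all genes 0.34. Gbp3 was at 83.3 to 128 CPM in Tri and at 62.1, 32.4, 0 and 383 CPM in Iso libraries, the 0 allowing up to 32.2 CPM in the library of 93198 counts. Markers of other cells were lower in Tri here as well. Of 15 myeloid markers edgeR called 4 lower and 14 had negative values, and of 12 with an adjusted p DESeq2 called 10 lower. Of 7 tumour and stromal markers edgeR called 1 lower, with a median log2 fold change of -6.31. Iso replicate 4, which held 10150 CPM of myeloid and 3384 CPM of tumour and stromal markers, had the highest Gbp3 value and the lowest Irgm1 value of its group, and the part of such cells was not tested. The difference between the treatment effects in the KLRG1 gates was called in 0 members and in 3.59% of all genes, with 0 members under an unadjusted p of 0.05 (18.3%) and 0 called by DESeq2.

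Between KLRG1+ and KLRG1- cells of the same treatment and PD1 gate, edgeR called no member. In Tri PD1+ cells 0 members were called, against 0.0569% of all genes, 0 had an unadjusted p under 0.05 (6.61%), and DESeq2 called 0. Log2 fold changes there ran from -1.64 ± 1.01 in Iigp1 to 0.72 ± 0.49 in Gbp3, and Igtp stood at 0.01 ± 0.23, with 244.1 ± 77.5 CPM in KLRG1+ and 244.5 ± 28.8 in KLRG1- libraries (SD, n = 5 each). In Tri PD1- cells 0 members were called, against 0% of all genes, 0 had an unadjusted p under 0.05 (4.80%), and DESeq2 called 0. Values ran from -0.85 ± 0.98 in Iigp1 to 0.12 ± 0.52 in Gbp3, with Ifi47 at -0.31 ± 0.17 and Igtp at -0.34 ± 0.24.

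In Iso PD1- cells edgeR called 0 members in the KLRG1 comparison, against 8.66% of all genes, and 2 had an unadjusted p under 0.05 (26.6%). Irgm1 averaged 155 ± 173 CPM in KLRG1+ and 259.7 ± 90.9 CPM in KLRG1- libraries (SD, n = 4 each), at -1.10 ± 0.49 (edgeR adjusted p = 0.148, but -1.93 and 0.00354 without Iso PD1-KLRG1+ replicate 3). Gbp7 averaged 457.5 ± 245 CPM in KLRG1+ and 278 ± 86.8 CPM in KLRG1- libraries, at 0.61 ± 0.26 (edgeR adjusted p = 0.143, DESeq2 0.0423). Its highest KLRG1+ value, 783 CPM, rests on 73 counts in replicate 3. The other KLRG1+ libraries were at 508.5, 279.7 and 258.5 CPM, against 177 to 388 CPM in KLRG1- libraries. The median of the members was 0.21, beside -0.52 over all genes. This comparison shares the Iso PD1-KLRG1+ libraries with the treatment comparison above.

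**Figure D4:**
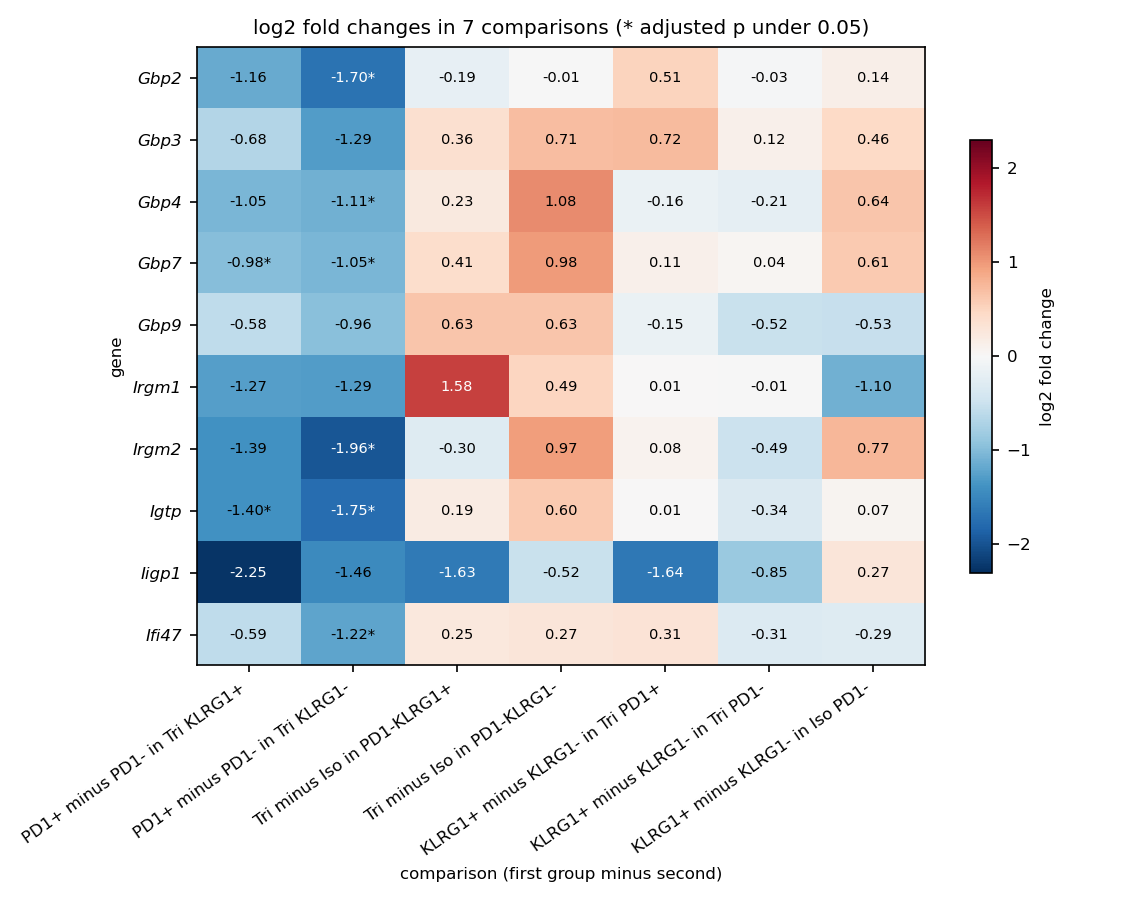
Fitted log2 fold change of each member (rows) in the 7 comparisons of groups (columns), the first group minus the second; colour gives the value and an asterisk an edgeR adjusted p under 0.05. Negative values fill the 2 PD1 columns, which hold all 8 calls.

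The order of the groups by summed members was Tri PD1-KLRG1- (4026 CPM), Tri PD1-KLRG1+ (3344), Iso PD1-KLRG1+ (2888), Iso PD1-KLRG1- (2564), Tri PD1+KLRG1+ (1811) and Tri PD1+KLRG1- (1709). Neighbours in this order differed by less than the larger of their SDs, except that Iso PD1-KLRG1- at 2564 ± 565.8 lay above Tri PD1+KLRG1+ at 1811 ± 318.7, with ranges of 1879 to 3194 and 1546 to 2358 CPM that overlap. Single members departed from it. Iigp1 had its highest means in Iso PD1-KLRG1+ (76.3 ± 44.5 CPM) and Iso PD1-KLRG1- libraries (61.6 ± 13.1). For Gbp2 the highest mean was that of Iso PD1-KLRG1+ libraries, 253.6 ± 124.4 CPM, with Tri PD1-KLRG1- next at 226.2 ± 55.79. This Gbp2 mean includes 430.9 CPM from replicate 2, beside 244.9, 150.2 (14 counts) and 188.3 CPM from the others. By median Gbp2 was lower there, at 216.6 CPM, than the 234.9 CPM of Tri PD1-KLRG1- libraries. Gbp9 (120.7 CPM) and Irgm1 (154.6 ± 173) had their lowest means in Iso PD1-KLRG1+ and Gbp7 (277.9) in Iso PD1-KLRG1- libraries, while the other 5 had their lowest in a Tri PD1+ group and their highest in Tri PD1-KLRG1-. That Gbp9 mean includes 10.7 CPM from 1 count in Iso PD1-KLRG1+ replicate 3, beside 125, 192 and 155 CPM in the others. Tri PD1+KLRG1+ libraries held 62.1 to 209.9 CPM of Gbp9. On the scale of mean CPM per kilobase of exon, Igtp led in both Tri PD1- groups and in Iso PD1-KLRG1+, and Ifi47 in both Tri PD1+ groups and in Iso PD1-KLRG1-. Igtp stood at 120.7 per kilobase in Tri PD1+KLRG1+ against 391.5 in Tri PD1-KLRG1- libraries, Ifi47 at 171 against 312 and Iigp1 at 1.31 against 8.08 in the same groups.

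Levels of the members were positively correlated across libraries and less so within groups. Over the 26 libraries with at least 6991521 counts, Pearson r of log2 CPM between members had a median of 0.49 over 45 pairs, from 0.09 to 0.83 in Gbp4 and Gbp7. After each group's mean was subtracted the median was 0.19, from -0.53 in Irgm2 and Ifi47 to 0.66 in Gbp4 with Gbp7 and with Gbp9, and 12 of 45 pairs were negative. Without the Iso PD1-KLRG1+ libraries the median over 23 libraries was 0.63. These are descriptions over libraries that share a group structure.

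**Figure D5:**
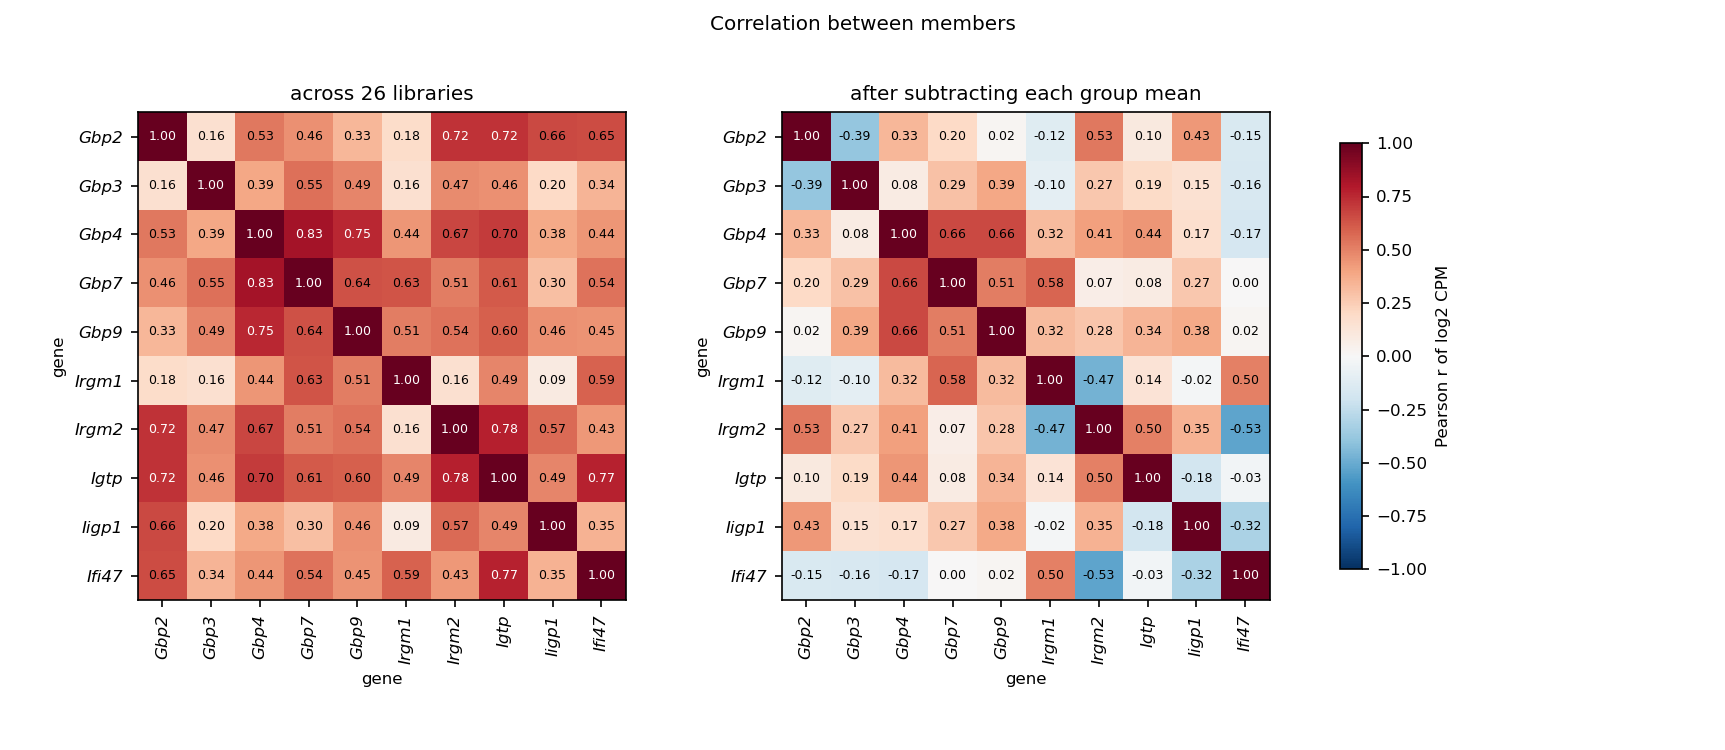
Pearson r of log2 CPM for each pair of members over 26 libraries (left) and over the same libraries after subtracting the mean of each group (right). The median over the 45 pairs is 0.49 on the left and 0.19 on the right, and Gbp4 with Gbp7 has 0.83 and 0.66.

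Across libraries, differences between groups included, the gene most like the members in pattern was Tgtp2. Likeness was the Pearson r of log2 CPM to the mean standardised level of the 10 members over 26 libraries, among 8810 other genes that averaged 10 CPM or more. Tgtp2 had r = 0.93, followed by Slc9a3r1 (0.89), Sp100 (0.89), Gimap6 (0.88), Ptprc (0.87), Slfn1 (0.87), Ifit1bl1 (0.86), Irf1 (0.86), Gimap4 (0.86) and Gramd3 (0.85). After subtracting group means other genes came first, with Sp100 at rank 6 (r = 0.77), Ptprc at 16 and Tgtp2 at 18 (0.74 each). On that scale r was 0.63 for Slc9a3r1, 0.49 for Irf1, 0.44 for Gramd3, 0.32 for Gimap6, 0.30 for Gimap4, 0.29 for Ifit1bl1 and 0.25 for Slfn1. Irf8 lay at the other end, with r = -0.82 over the libraries, and -0.15 after subtracting group means.

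Of 20 other genes of the 2 families, 19 were in the table and 16 were tested. In the PD1 comparisons edgeR called 0 higher and 2 lower in each gate, both encoding the effector GTPase Irgb6. Of all genes 0.939% were called lower in KLRG1- and 0.711% in KLRG1+ cells. Of 17 other family genes with an adjusted p, DESeq2 called 1 higher and 2 lower in KLRG1- cells, and 3 lower in KLRG1+ cells. Tgtp1 averaged 69.2 CPM in Tri PD1+KLRG1- and 555 CPM in Tri PD1-KLRG1- libraries, a log2 fold change of -3.09 ± 0.35 (edgeR adjusted p = 6.26e-06). Tgtp2 averaged 384 CPM in Tri PD1+KLRG1- against 1121 CPM in Tri PD1-KLRG1- libraries, at -1.62 ± 0.20 (edgeR adjusted p = 2.04e-05). In the KLRG1+ gate Tgtp1 fell by 1.55 ± 0.34 on the log2 scale (edgeR adjusted p = 0.0174) and Tgtp2 by 1.02 ± 0.21 (0.0078). Of the 50-base stretches of the longest protein-coding Tgtp1 transcript, 89.4% also occur in Tgtp2, so the split of reads between them is uncertain. Between treatments 0 of the 16 were called by edgeR in PD1-KLRG1- cells, against 0.804% of all genes. There 5 had an unadjusted p under 0.05, against 8% of all genes, and DESeq2 called 1 lower of 17 with an adjusted p. EdgeR called 3 of the 16 higher in Tri PD1-KLRG1+ cells, where 5.46% of all genes were called higher. These were Gvin1, a giant interferon-inducible GTPase gene, at 1.53 ± 0.40 (edgeR adjusted p = 0.0203), Gm8995 at 1.22 ± 0.29 (0.0103) and Gm12185. Gm12185 averaged 30.2 CPM in Tri PD1-KLRG1+ libraries and was at 0 in all 4 Iso PD1-KLRG1+ libraries (edgeR adjusted p = 0.00695), in which fewer genes were detected than elsewhere. Set against the 25.8 CPM averaged by Iso PD1-KLRG1- libraries, it was also called lower in Iso PD1-KLRG1+ libraries (edgeR adjusted p = 0.00536), and it was the 1 gene of the 16 called in the interaction of KLRG1 with treatment (0.0263). No fold is given, since Gm12185 was also at 0 in 2 of 5 and at 0.324 CPM in 1 of 5 Tri PD1+KLRG1+ libraries, the others holding 17.4 and 28.2 CPM.

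Upstream, the ligand and the transcription factors of the pathway did not all move with the GTPases. Ifng, which encodes interferon-gamma itself, was at 480, 495, 582, 469 and 405 CPM in Tri PD1+KLRG1+, against 184, 199, 197 and 67.8 CPM in Tri PD1-KLRG1+ libraries. All PD1+ libraries lay above all PD1- libraries, yet the log2 fold change of 1.53 ± 0.43 missed the threshold (edgeR adjusted p = 0.0852). In the KLRG1- gate Ifng averaged 367 CPM in Tri PD1+ and 216.5 CPM in Tri PD1- libraries, at 0.67 ± 0.39 (edgeR adjusted p = 0.739), with Tri PD1-KLRG1- replicate 5 at 505 CPM and the other 4 of its group at 109.6 to 186 CPM. Irf1 fell in both gates, with 260 CPM in Tri PD1+KLRG1- and 584 CPM in Tri PD1-KLRG1- libraries (-1.24 ± 0.20, edgeR adjusted p = 0.000402) and -0.94 ± 0.21 in the KLRG1+ gate (0.0153).

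The receptor chain gene Ifngr1 fell in KLRG1- cells by 0.77 ± 0.17 on the log2 scale (edgeR adjusted p = 0.0152) and stood at -0.70 ± 0.18 in KLRG1+ cells (0.052). Irf8 and Stat3, of the same list, went the other way. Irf8, an interferon regulatory factor, averaged 736 CPM in Tri PD1+KLRG1- against 133 CPM in Tri PD1-KLRG1- libraries (2.41 ± 0.31, edgeR adjusted p = 2.53e-05), and 751 CPM in Tri PD1+KLRG1+ and 139 CPM in Tri PD1-KLRG1+ libraries (2.37 ± 0.33, 0.000558). Stat3, which carries signals of interleukin-6 and interleukin-10, rose in KLRG1- cells by 1.01 ± 0.20 (edgeR adjusted p = 0.00424). Of the 16 receptor and signalling genes counted here, 2 rose and 2 fell in KLRG1- cells, and 1 rose and 1 fell in KLRG1+ cells. Of all genes 0.619% rose in KLRG1- and 0.491% in KLRG1+ cells, and the shares that fell were those given for the members. The median log2 fold change of the 16 was -0.73 in KLRG1- and -0.53 in KLRG1+ cells, against 0.06 and -0.01 over all genes tested in the same gates. Between treatments 0 of the 16 were called by edgeR in PD1-KLRG1- cells, with 1 under an unadjusted p of 0.05 (8% of all genes) and 1 called higher by DESeq2, and 0 in PD1-KLRG1+ cells, with 5 under an unadjusted p of 0.05, where 22.2% of all genes were, and 0 called by DESeq2.

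Other genes that interferon-gamma induces, such as the antigen processing genes Tap1 and Psmb8, were taken as a list of 10, of which 9 passed the filter. In the PD1 comparisons 0 of the 9 were called in either gate by edgeR, with 1 under an unadjusted p of 0.05 in each. Of 8 with an adjusted p, DESeq2 called 0 in KLRG1+ and 1 lower in KLRG1- cells. Their median log2 fold change was -0.29 in KLRG1- and -0.20 in KLRG1+ cells. Genes induced by type I interferon were lower in PD1+ cells in 5 of 14 in the KLRG1- gate (0.939% of all genes), with a median of -1.35, and in 2 of 14 in the KLRG1+ gate (0.711%), with a median of -0.96. Rtp4 and Usp18, which restrains signalling of the type I interferon receptor, fell in both. Rtp4 fell by 2.06 ± 0.27 on the log2 scale in KLRG1- and 1.73 ± 0.28 in KLRG1+ cells (edgeR adjusted p = 4.07e-05 and 0.00125), and Usp18 by 1.73 ± 0.31 and 1.55 ± 0.32 in the same gates (0.00152 and 0.00917). Ifit1 (-1.85 ± 0.34, edgeR adjusted p = 0.00191) and Irf7 (-1.19 ± 0.24, 0.00567) fell in KLRG1- cells. Between treatments Rtp4 was higher in Tri PD1-KLRG1+ cells by 1.06 ± 0.30 (edgeR adjusted p = 0.0365). Within Iso PD1- cells it was lower in KLRG1+ than in KLRG1- cells, at -1.15 ± 0.30 (edgeR adjusted p = 0.0167), and so was Socs1, a feedback inhibitor of the pathway, at -0.94 ± 0.30 (0.0498), where 7.43% of all genes were called lower. Whether these lists differ from the GTPases in their PD1 effect was not tested.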

How the data were processed

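The authors deposited a table of counts, whole numbers per Ensembl mouse gene for 27 libraries, with no normalisation. DESeq2 1.26.0 is named without a role, per the submitters' processing notes. For the aligner, counter, strandedness, genome build and annotation: not given in the sources used here. Columns were matched to groups by the descriptions in the labels. GENCODE M21 named 47224 of 47729 IDs, left 505 without a symbol and gave exon lengths, and promoters came from RefSeq (GRCm38.p6).

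Genes were kept by filterByExpr at a minimum count of 10. EdgeR 4.0.16 in R 4.3.3 fitted all 27 libraries at once, with TMM scaling, a mean per group and a term for the name series. It used robust quasi-likelihood F tests for 7 comparisons and 2 interactions, with Benjamini-Hochberg adjustment over 14059 genes and calls under 0.05. SEs are the log2 fold change over the square root of F. CPM are counts over library totals, and correlations used log2 CPM with a prior count of 2. Depth was 93198 counts in 1 library and 6991521 to 26284630 in the others. All 10 members were named, and other listed genes where called, up to 4 a comparison. Exceptions named after their values were seen were Ifng, Ifngr2 and the uncalled value of Ifngr1. Some listed genes are not reported here, and the counts leave them out. The members and gene lists were chosen with earlier results of these data known. Alternatives were other scaling, other count filters, DESeq2 1.42.0, a fit of the compared groups alone, a replicate block, omission of the series term, fits within each series and omission of libraries. The procedure was tested on simulated data. Figures used matplotlib 3.10.9.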

Additional observations from a re-analysis of the deposited data

Results flagged for a closer look

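Within each group, the highest and lowest library of each member was checked for a gap to the others that is large for the group's range (Dixon's test), and 3 of 60 sets were flagged, where chance flags about 1 in 20. Gbp3 was at 383 CPM in Iso PD1-KLRG1+ replicate 4 and at 0 to 62.1 CPM in the other libraries of that group. The same library held 10150 CPM of summed myeloid markers (246.8 to 1001 CPM in the others), 3384 CPM of tumour and stromal markers (42.9 to 527.8 CPM) and the lowest CD8 T cell marker sum, 5051 CPM, and their part was not tested. Gbp7 was at 476 CPM in Tri PD1+KLRG1+ replicate 4, against 259.5 to 293 CPM in the others. Irgm1 was at 230 CPM in Tri PD1+KLRG1- replicate 5, against 129 to 151 CPM in the others.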

How the results depend on the processing

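All 10 members kept negative log2 fold changes in both PD1 comparisons under every alternative run. The number of members called varied. Shares of all genes called under the alternatives are not given beside these counts, which describe the calls alone. In KLRG1+ cells, where the count was 2, median-ratio scaling and the fit without the name-series term gave 1. No count filter gave 4, as did a fit without the Iso PD1-KLRG1+ libraries. So did a fit without 3 libraries chosen with no stated rule, Tri PD1-KLRG1- replicate 5 and replicates 3 and 4 of Iso PD1-KLRG1+. Tri PD1-KLRG1- replicate 5 was the lowest of its group in Gbp2, Gbp9, Igtp, Iigp1 and Ifi47 and the highest in Gbp3. Libraries without the name suffix alone gave 0, and leaving out 1 library gave 1 to 2. In KLRG1- cells, where it was 6, libraries without the suffix gave 2, those with it 0, the groups compared alone 9, and leaving out 1 library 3 to 5.

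Of the comparisons with a count of 0, Tri against Iso in PD1-KLRG1- cells had 2 without a count filter, without the 3 libraries or without the Iso PD1-KLRG1+ libraries, and 1 with the groups compared alone or DESeq2. Leaving out 1 library kept it at 0. In PD1-KLRG1+ cells it had 1 without a filter, at a minimum count of 50, without the series term or without the 3 libraries, 2 with the suffix alone, and 0 to 1 without 1 library. The KLRG1 comparison in Iso had 1 without a filter, with DESeq2 or without the 3 libraries, 2 with the suffix alone, and 0 to 1 without 1 library. The interaction of KLRG1 with treatment had 2 with the suffix alone and 0 to 1 without 1 library. Gbp3 reversed between Tri and Iso PD1-KLRG1+ cells, from an uncalled 0.36 to -1.63 (adjusted p = 0.0279), in libraries with the suffix alone, where each group has 1 library and the spread comes from the other groups. The cause of these shifts was not tested.

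Replicate numbers repeat across gates, and the labels do not say whether libraries of the same number share a mouse. Deviations of the 31 pairs of libraries with the same treatment and number correlated at -0.11 to 0.28, with 9 over 0.1. Pairs among the Tri replicate 4 libraries lay at 0.15 to 0.28. Of 51 pairs with the same treatment and name series but different numbers, 8 were over 0.1. On these values the numbers were not taken to pair libraries, though pairing remains possible. A replicate block gave 4 calls in KLRG1- (without Gbp4 and Irgm2) and 2 in KLRG1+ cells for PD1, 1 for KLRG1 in Iso and 0 elsewhere. Depth limits Iso PD1-KLRG1+ replicate 3, where 3 counts correspond to 32.2 CPM.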

Other observations

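Ifngr2, which encodes the signalling chain of the interferon-gamma receptor, was counted in few libraries and was singled out after its values were seen. It was at 17.1, 15.4, 9.75 and 44.3 CPM in the 4 Iso PD1-KLRG1- libraries and at 0 in all 4 Tri PD1-KLRG1+ and all 4 Iso PD1-KLRG1+ libraries. Replicate 4, the highest, also held the most myeloid marker RNA of its group (4132 CPM, against 915.1 to 1501 in the others), and the Iso PD1-KLRG1+ libraries are those with the fewest genes detected. The part of either was not tested. In the other Tri groups it had a count in 1 of 5 PD1+KLRG1+, 2 of 5 PD1+KLRG1- and 2 of 5 PD1-KLRG1- libraries, at no more than 7.45 CPM. None of the 7 comparisons called it (edgeR, lowest adjusted p = 0.0756, for KLRG1+ minus KLRG1- in Iso PD1- cells).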
